A study of Drosophila melanogaster with 8 samples.

Results

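The genes described here mark and signal from the somatic niche of the fly ovary. They were taken as a named list of 9 genes (bab1, bab2, en, hh, wg, Wnt4, tj, dpp and ptc), matched by FlyBase symbol to the 15682 gene rows of the count tables, and 8 of them had a row. The identifier that the annotation pairs with wg had no row, so wg was not analysed here. Of the 8, 7 passed the filter on low counts and were tested, and en did not pass it.

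Germline stem cells of the Drosophila ovary sit at the tip of each germarium, held by a stack of terminal filament cells and by the cap cells below it. The transcription factors bab1, bab2 and en act in forming or marking these cells, which secrete the Hedgehog ligand hh and the BMP ligand dpp. Escort cells behind them carry the Hedgehog receptor ptc and the Wnt ligand Wnt4. The Maf factor tj is made in the somatic cells of the ovary more widely, follicle cells included.

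RNA was measured in ovaries of Drosophila melanogaster aged 4 to 6 days, in 4 groups of 2 libraries each. Mutant ovaries were piwi1/piwi2, that is, they carried these alleles of piwi, which encodes the nuclear Argonaute protein that silences transposons. Their control carried the germline driver nos-GAL4-VP16, a transgene that the mutant's labels do not name. In the knockdown, a dsRNA against RnpS1, which encodes an RNA-binding accessory factor of exon junction complexes, was driven by tj-GAL4 in somatic gonadal cells, and an shRNA against it by nos-GAL4-VP16 in the germline. The knockdown's control carried both drivers without either RNA. A driver named for tj is therefore present in both RnpS1 groups and in neither piwi group, and a difference between the series cannot be told apart from it. Nothing in the labels ties the 2 libraries of a group to separate animals, so a p-value reflects just the spread between these libraries, which may be technical.

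The libraries held 37426999 to 86692865 gene counts. The targeted genes were lower where they were targeted, with log2 fold changes of −0.83 for piwi in the mutant (SE 0.133) and −2.88 for RnpS1 in the knockdown (SE 0.366). In the RnpS1 knockdown piwi was lower too, at −1.24 (SE 0.134, adjusted p = 0.0149, edgeR), so that both series had reduced piwi RNA. Markers of other cells differed between the mutant and its control. The summed level of 10 eggshell genes of late follicle cells was 153 and 1136 CPM (gene counts scaled to equal library totals) in the mutant, against 7563 and 6327 CPM in its control. That of 9 muscle genes was 1193 and 2301 CPM in the mutant, against 398 and 132 CPM in its control, and that of 7 fat body genes 353 and 1003 CPM against 73.4 and 55.1 CPM. Haemocyte genes summed to 462 and 752 CPM in the mutant, against 431 and 166 CPM in its control, with He at 0 counts in the control. Within that list Hml, Pxn and NimC1 rose by 4.75, 4.85 and 7.22 on the log2 scale, whereas Col4a1 and vkg had −0.30 and −0.38. Gut genes summed to 0.621 and 24.7 CPM against 0.855 and 1.06 CPM, with deltaTry at 0 in both groups, and oviduct and spermatheca genes to 9.49 and 14.2 CPM against 19.0 and 24.9 CPM. In that list Oamb had −1.27 (adjusted p = 0.0910), and Send1, at 0 counts in the control, passed as higher (adjusted p = 0.0425). The 10 germline genes summed to 3342 and 3632 CPM in the mutant, against 4441 and 4155 CPM in its control. Among them 2 had positive log2 fold changes, bam (1.19, adjusted p = 0.0436, edgeR) and bgcn (1.54, adjusted p = 0.0772). The 3 that passed as lower were osk (−0.71), egl (−0.59) and bcd (−0.58). The part of these tissues in the results below was not tested. In the knockdown series the eggshell genes summed to 2950 and 9771 CPM in knockdown ovaries, against 6921 and 14253 CPM in their control, so that knockdown replicate 1 lay below all 3 others. Muscle genes summed to 214 and 754 CPM in the knockdown, against 84.1 and 724 CPM in its control, and gut genes to 61.3 and 33.7 CPM against 146 and 0.268 CPM, so replicates of 1 group stood far apart. Because these are whole ovaries, fewer cells of a type and less RNA per cell cannot be told apart.

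All of these genes except tj were rare transcripts. Levels were compared between genes as CPM per kilobase of exon, with exon lengths from a later annotation release (BDGP6) than the authors' build. On that scale tj stood at 7.98 ± 1.09 in the piwi mutant and 16.0 ± 6.64 in its control (mean ± SD, n = 2, as for all values given in this form). The next gene, dpp, stood at 1.54 ± 0.375 in the mutant and 0.800 ± 0.369 in the control. The order below tj was dpp, ptc, bab2, Wnt4, hh, bab1 and en in the mutant, and the piwi control differed only in that Wnt4 preceded bab2. In the piwi control the libraries of Wnt4 and bab2 overlapped, as did those of dpp and ptc, ptc and Wnt4, and bab2 and hh. Neighbours in the mutant's order whose libraries overlapped were dpp and ptc, ptc and bab2, Wnt4 and hh, and hh and bab1. In the RnpS1 control the order was tj, dpp, ptc, bab2, Wnt4, hh, bab1 and en, and the libraries of no neighbouring pair overlapped. In RnpS1 knockdown ovaries the order was the same, but the libraries of dpp, ptc, bab2, Wnt4 and hh overlapped from each gene to the next. The lowest of the tested genes, bab1, stood at 0.179 ± 0.0300 in the piwi mutant and 0.0434 ± 0.0165 in its control.

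**Figure D1:**
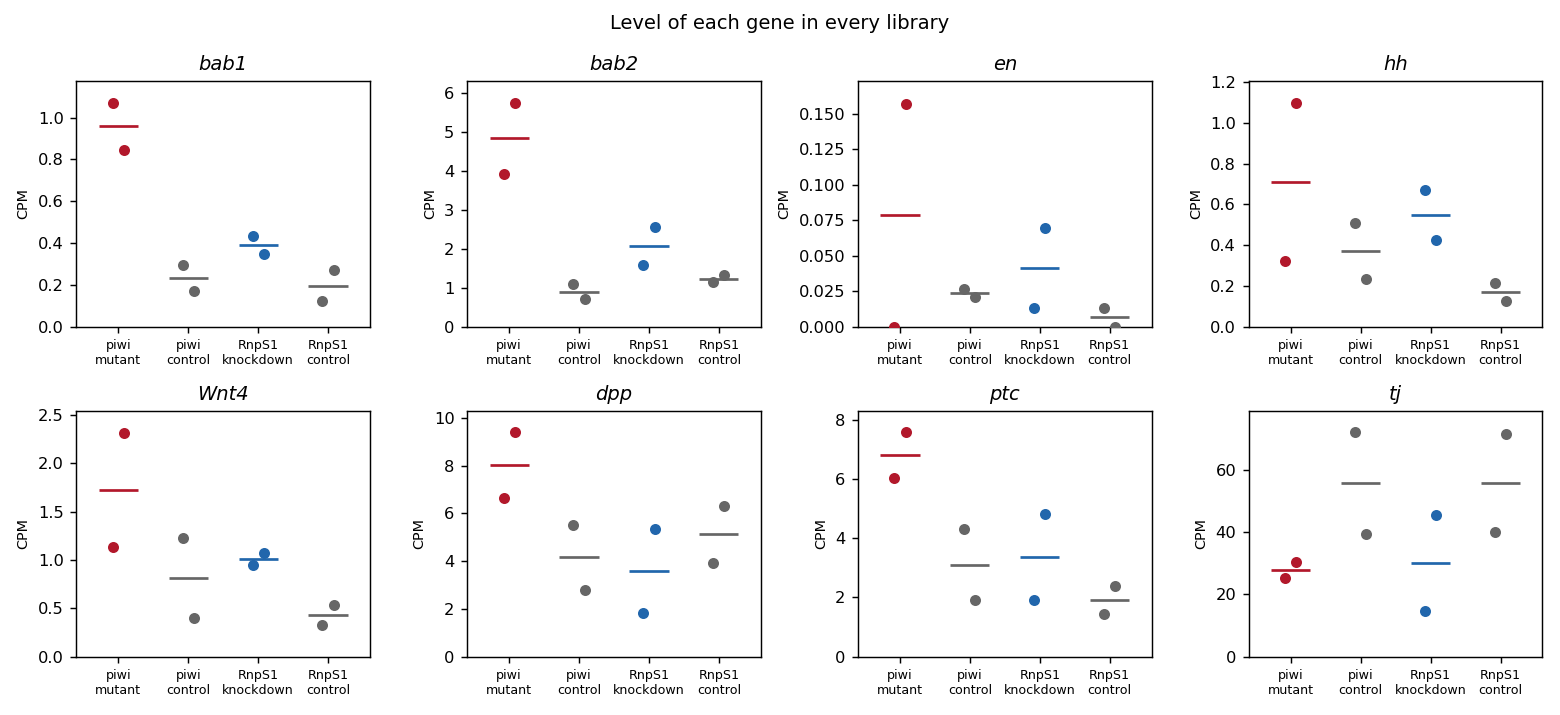
Level in CPM (y axis, linear from 0, its own scale in each panel) of the 8 genes with a row, in the 4 groups; each point is 1 library and each bar the mean of 2. Both piwi mutant libraries lay above both controls for bab1, bab2, dpp and ptc and below them for tj.

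The paralogous BTB-domain factors bab1 and bab2, which are required to build terminal filaments, were the genes of the list that stood highest in the piwi mutant relative to its control. The gene bab2 (FBgn0025525) had 3.92 and 5.75 CPM in the mutant, against 1.10 and 0.698 CPM in its control. In the knockdown it had 1.58 and 2.55 CPM, against 1.13 and 1.32 CPM in the RnpS1 control. The mutant libraries lay well above those of every other group, and the knockdown libraries lay above their own controls by less. In the mutant bab2 rose by 2.27 on the log2 scale (SE 0.505, 4.83-fold, adjusted p = 0.0369, edgeR quasi-likelihood, Benjamini-Hochberg adjusted over 10434 genes). It was the only gene of the 7 to pass, in a comparison in which 6.37% of all tested genes rose and 5.06% fell (11.4% in all), so that 1 of 7 is not far from the background.

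The call of bab2 depended on the set of libraries, although its value stayed between 1.96 and 2.65. Leaving out mutant replicate 1 gave an adjusted p of 0.117 and leaving out replicate 2 one of 0.186. Leaving out piwi control replicate 1 gave 0.0884 and leaving out replicate 2 gave 0.195. It was 0.0526 and 0.0508 without RnpS1 control replicate 1 or 2, and 0.0629 with the replicate number as a block. DESeq2 gave an adjusted p of 0.000323. In the knockdown the log2 fold change of bab2 was 0.64 (SE 0.482, adjusted p = 0.541), and the difference between the knockdown and mutant changes was −1.63 (SE 0.686, unadjusted p = 0.0489, adjusted p = 0.324).

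The neighbouring gene bab1 (FBgn0004870) had a similar profile at a lower level. It had 1.07 and 0.844 CPM in the mutant, from 50 and 43 counts, against 0.294 and 0.169 CPM in its control, from 11 and 8 counts. The knockdown had 0.435 and 0.346 CPM, against 0.120 and 0.268 CPM in the RnpS1 control. In each comparison both libraries of the mutant or knockdown lay above both of their controls. The log2 fold change was 1.89 in the mutant (SE 0.650, adjusted p = 0.0979) and 0.91 in the knockdown (SE 0.637, adjusted p = 0.513), and neither passed. The knockdown value was 0.41 without RnpS1 control replicate 1 and 1.57 without replicate 2. There were 3.66 and 6.81 bab2 counts per bab1 count in the mutant and 3.73 and 4.13 in its control, which overlapped. The ratio was 3.64 and 7.37 in the knockdown and 9.44 and 4.92 in the RnpS1 control, which overlapped too. In the BDGP6 annotation bab1 and bab2 lie side by side on chromosome arm 3L on the same strand, and a copy of an LTR transposon lies within bab1 on its strand in the reference strain, and a roo copy within bab2 on the other strand. Whether these flies carry those copies was not tested.

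The homeodomain gene en (FBgn0000577), a terminal filament and cap cell marker, was near the limit of detection. It had 0 and 8 counts in the mutant, against 1 and 1 in its control, and 1 and 6 counts in the knockdown, against 1 and 0 in the RnpS1 control. A count of 0 in mutant replicate 1 allows a level of up to 0.0643 CPM. The ratio of summed counts, scaled to depth, was 3.47 for the mutant over its control (exact 95% interval 0.693 to 33.6) and 5.32 for the knockdown over its control (0.684 to 240). Both intervals hold 1, and they cover counting error only. A difference in en was thus not detectable at this depth.

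The ligand gene hh (FBgn0004644), whose product leaves terminal filament and cap cells, differed between mutant libraries more than between groups. It had 0.321 and 1.10 CPM in the mutant, against 0.508 and 0.233 CPM in its control. Mutant replicate 1 lay within the control range and replicate 2 above it, and the value of 0.79 on the log2 scale (SE 0.790, adjusted p = 0.523) turned to −0.36 without mutant replicate 2. In the knockdown hh had 0.672 and 0.427 CPM, against 0.213 and 0.124 CPM in the RnpS1 control. Both knockdown libraries lay above both controls, and the value of 1.56 on the log2 scale (SE 0.806, adjusted p = 0.359) did not pass.

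The Hedgehog receptor gene ptc (FBgn0003892), which is also a transcriptional target of the pathway, had 6.04 and 7.58 CPM in the mutant, against 4.30 and 1.90 CPM in its control. The groups did not overlap, and the log2 fold change was 0.97 (SE 0.622, adjusted p = 0.317), with 1.70 without piwi control replicate 1 and 0.50 without replicate 2. In the knockdown it had 1.90 and 4.82 CPM, against 1.42 and 2.39 CPM in the RnpS1 control. Knockdown replicate 1 lay between the controls and replicate 2 above them, and the value of 0.71 on the log2 scale (SE 0.620, adjusted p = 0.604) turned to −0.14 without knockdown replicate 2.

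Wnt4 (FBgn0010453), a Wnt ligand gene of escort cells, had 1.14 and 2.32 CPM in the mutant, against 1.23 and 0.402 CPM in its control. These groups overlapped (log2 fold change 0.93, SE 0.693, adjusted p = 0.390). The value was 1.96 without piwi control replicate 1 and 0.33 without replicate 2, and 0.32 without mutant replicate 2. In the knockdown Wnt4 had 0.949 and 1.07 CPM, against 0.333 and 0.536 CPM in the RnpS1 control. Both knockdown libraries were higher than both controls (log2 fold change 1.11, SE 0.699, adjusted p = 0.462). In the BDGP6 annotation Wnt4 is overlapped by CG31909 on the other strand and by an INE-1 transposon copy on its own strand. The libraries were strand-specific per the labels, which does not separate reads of the INE-1 copy.

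The BMP ligand gene dpp (FBgn0000490), which maintains germline stem cells, took opposite signs in the comparisons. It had 6.64 and 9.40 CPM in the mutant, against 5.53 and 2.81 CPM in its control, and these groups did not overlap. In the knockdown it had 1.83 and 5.33 CPM, against 3.93 and 6.31 CPM in the RnpS1 control, and these overlapped. The log2 fold changes were 0.78 in the mutant (SE 0.611, adjusted p = 0.409) and −0.62 in the knockdown (SE 0.609, adjusted p = 0.651). The mutant value ran from 0.38 without piwi control replicate 2 to 1.38 without replicate 1, and the knockdown value from −1.61 without knockdown replicate 2 to −0.05 without replicate 1. The difference between them, −1.41, did not pass (SE 0.863, adjusted p = 0.497).

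The somatic factor gene tj (FBgn0000964) was the only tested gene of the list with a negative value in both comparisons. It had 25.2 and 30.5 CPM in the mutant, against 72.2 and 39.5 CPM in its control. Both mutant libraries lay below both controls, and the log2 fold change was −1.16 (SE 0.561, adjusted p = 0.199). It was −0.64 without piwi control replicate 1 and −1.53 without replicate 2. With the crossed pairing of the piwi groups, an alternative added after seeing the data, tj passed as lower (−1.07, adjusted p = 0.0219). That pairing has no stated origin and was fitted to the 2 piwi groups alone. It called 2698 of all genes, against 1555 in a fit of those 2 groups without pairing and 1193 in the main fit. No conclusion on tj is therefore drawn from it. In the knockdown tj had 14.7 and 45.5 CPM, against 40.2 and 71.6 CPM in the RnpS1 control. The knockdown libraries differed 3.10-fold from each other and overlapped the controls, with −0.999 on the log2 scale (SE 0.557, adjusted p = 0.398). That value was −2.06 without knockdown replicate 2, −0.40 without knockdown replicate 1 and −0.53 without RnpS1 control replicate 2. The controls differed little in their means, 55.9 ± 22.2 CPM in the RnpS1 control, which carries tj-GAL4, and 55.9 ± 23.2 CPM in the piwi control, which does not (log2 fold change −0.02, SE 0.552). That sign is not stable, and the value was 0.00036 with library totals alone and 0.50 without piwi control replicate 1. In the annotation tj has no intron, whereas the longest intron of bab1, bab2, dpp, Wnt4, ptc and hh measured 58746, 28828, 26006, 18099, 9401 and 7778 bases. Of 9963 tested genes with annotation, 14.6% had an intron of 5000 bases or more, and 6 of the 8 genes described here did.

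**Figure D2:**
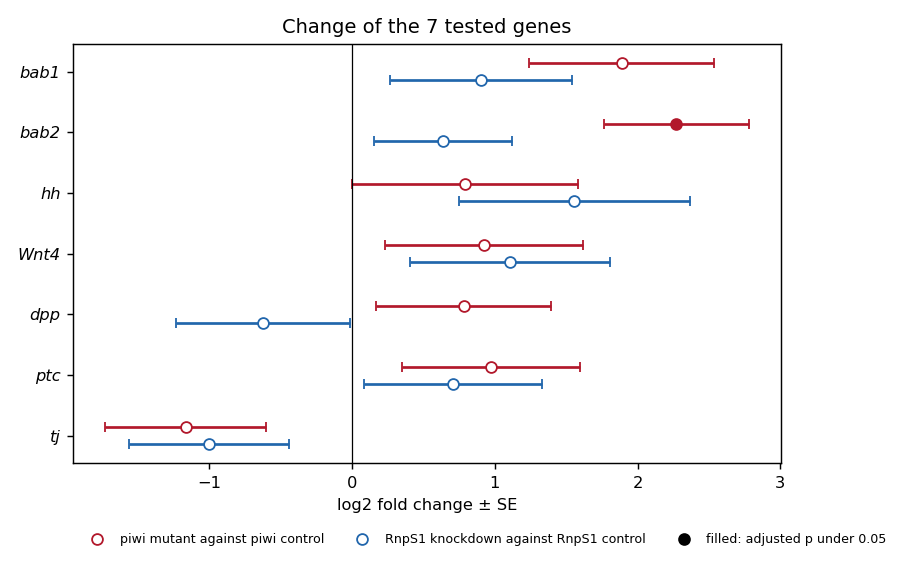
Log2 fold change (x axis) with its SE as bars for the 7 tested genes, in the piwi mutant against its control (upper point of each pair) and the RnpS1 knockdown against its control (lower point); a filled point passed. Of the points, that of bab2 in the mutant at 2.27 is filled, and those of tj lie left of 0 in both comparisons.

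Across the 7 tested genes the piwi mutant had 6 positive log2 fold changes and 1 negative, with a median of 0.93, beside a median of 0.01 over all tested genes, of which 50.7% were positive. The unadjusted p was under 0.05 for 2 of the 7, bab1 and bab2, beside 32.4% of all tested genes. Both mutant libraries exceeded both controls for 4 of the 7 and fell below them for 1. Over all tested genes these shares were 45.6% and 18.5% on the CPM scale, and 33.7% and 32.5% after TMM scaling, on which the 7 genes gave the same counts. In the knockdown 5 of the 7 were positive, with a median of 0.71 beside 0.01 over all tested genes. Both knockdown libraries exceeded both controls for 4 genes, bab1, bab2, hh and Wnt4, and fell below them for none, beside 34.2% and 11.4% of all tested genes (24.5% and 20.3% after TMM scaling). None of the 7 passed in the knockdown (0, against 0 at an unadjusted p under 0.05 and 0 in DESeq2), a comparison in which edgeR called 1.62% of all genes and 18.2% had an unadjusted p under 0.05. None passed for the difference between the changes either (0, against 1 at an unadjusted p under 0.05 and 0 in DESeq2), where 0.652% of all genes did and 15.3% had an unadjusted p under 0.05. Between the controls 0 of 7 passed in edgeR (0 at an unadjusted p under 0.05, 0 in DESeq2), where 3.85% of all genes did and 21.4% had an unadjusted p under 0.05. Both RnpS1 control libraries exceeded both piwi controls for bab2 and fell below them for hh, beside 25.5% and 22.7% of all genes (24.2% and 24.2% after TMM scaling).

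Levels of tj, dpp and ptc shifted together from library to library within a group, so each gene was also expressed relative to tj in the same library, a measure chosen after the values were seen. There were 24.0 and 24.8 ptc counts per 100 tj counts in the mutant, against 5.95 and 4.82 in its control. The knockdown had 12.9 and 10.6, against 3.55 and 3.34 in the RnpS1 control. For ptc the libraries of a group differed by 1.03-fold to 1.24-fold on this measure, beside 1.25-fold to 2.54-fold in CPM. For dpp there were 26.4 and 30.8 counts per 100 tj counts in the mutant, against 7.66 and 7.12 in its control, and 12.5 and 11.7 in the knockdown, against 9.78 and 8.82 in its control. All 4 comparisons of ptc and dpp were without overlap. On this measure both mutant libraries exceeded both controls for 84.3% of tested genes, and both knockdown libraries exceeded theirs for 40.0%. Relative to tj, bab2 stood at 15.6 and 18.8 in the mutant, against 1.52 and 1.77 in its control, and at 10.8 and 5.60 in the knockdown, against 2.82 and 1.84 in its control.

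A lower tj level raises every such ratio. Over all tested genes with counts in the control, the median ratio to tj was 2.06-fold higher in the mutant than in its control, and both mutant libraries exceeded both controls for 84.3% of genes. Beside that median, the ratio of ptc was 4.53-fold higher, that of dpp 3.87-fold, that of Wnt4 4.45-fold, that of hh 3.77-fold, that of bab1 8.40-fold and that of bab2 10.5-fold. The share of tested genes with a smaller fold was 78.7% for ptc, 76.3% for dpp, 78.4% for Wnt4 and 75.9% for hh. It was 86.7% for bab1 and 89.2% for bab2. In the knockdown the median over all tested genes was 2.53-fold, with both libraries higher for 40.0% of genes, and the ratio was 3.41-fold higher for ptc, 1.30-fold for dpp, 3.51-fold for bab2, 5.53-fold for bab1, 5.59-fold for Wnt4 and 7.84-fold for hh. Only dpp of these 6 genes lay below the median in the knockdown, and 4.46% of genes had a smaller fold than dpp. For the others that share was 76.1% (ptc), 77.0% (bab2), 86.1% (bab1), 86.2% (Wnt4) and 90.9% (hh). All folds here are of the mean of 2 libraries. Per 100 tj counts the knockdown libraries had 4.57 and 0.938 for hh, 2.96 and 0.760 for bab1, and 6.46 and 2.36 for Wnt4. They differed 4.88-fold, 3.89-fold and 2.74-fold on this measure, beside 1.58-fold, 1.26-fold and 1.13-fold in CPM.

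**Figure D3:**
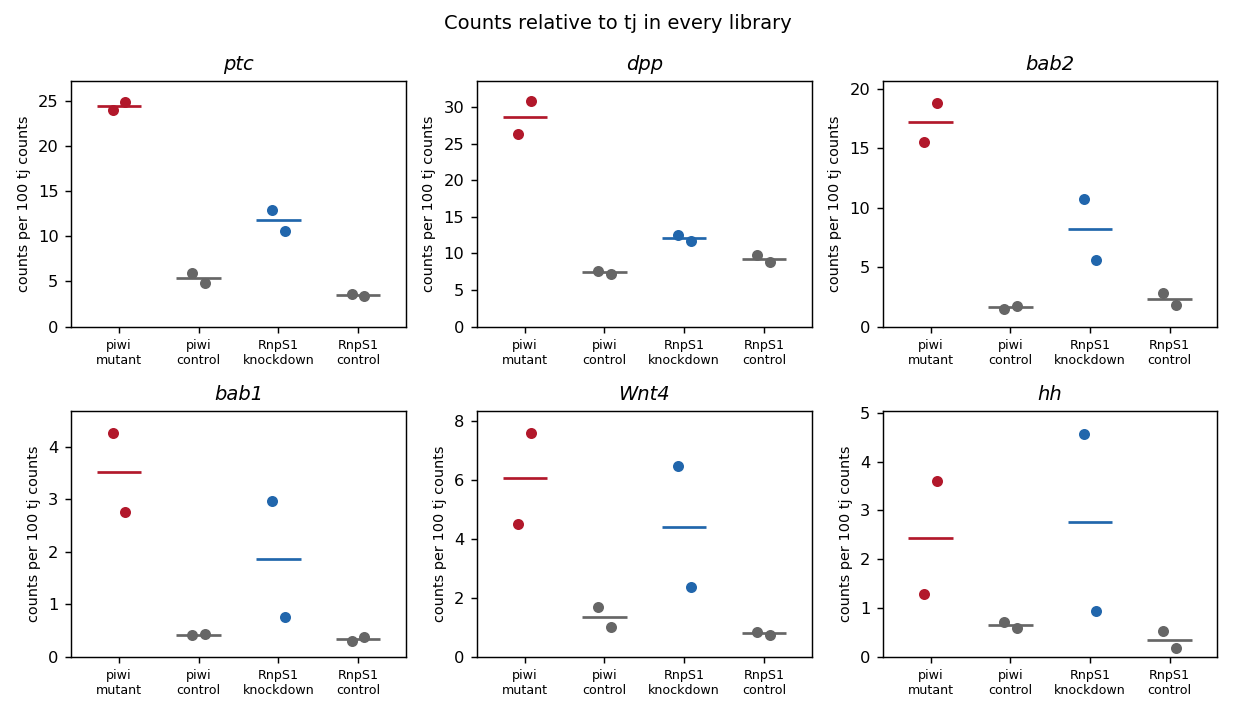
Counts per 100 tj counts in the same library (y axis, linear from 0, its own scale in each panel) for 6 genes in the 4 groups; each point is 1 library and each bar the mean of 2. The libraries of a group lie close together for ptc and dpp, and far apart in the knockdown for bab1, Wnt4 and hh.

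Other genes that mark or shape the terminal filament and the cap changed in both directions in the piwi mutant. Of 7 listed, 6 had a row and 5 were tested, of which 1 rose and 1 fell, beside 6.37% and 5.06% of all tested genes. DESeq2 called 1 of the 5 higher and 2 lower, and in edgeR 2 higher and 2 lower had an unadjusted p under 0.05. Of the 10434 genes in the mutant comparison 32.4% had an unadjusted p under 0.05 in edgeR, and DESeq2 called 1295 higher and 1170 lower. In the knockdown these were 18.2%, 513 and 488, with 1.62% passing in edgeR. Counts of the lists below stand beside the same shares. The lamin gene LamC, whose product marks terminal filament and cap cell nuclei, had 123 and 135 CPM in the mutant, against 68.0 and 53.5 CPM in its control (0.92 on the log2 scale, SE 0.200, adjusted p = 0.0351). The receptor gene N, which acts in setting up the niche, fell by 0.75 on the log2 scale (SE 0.138, adjusted p = 0.0239), with 341 and 382 CPM in the mutant against 544 and 545 CPM in its control. In the RnpS1 control N was also lower than in the piwi control, at −0.79 on the log2 scale (SE 0.138, adjusted p = 0.0330), so that a fall of N in the mutant and an elevated piwi control cannot be told apart. The Notch ligand gene Ser had the largest change that did not pass, at 0.921 and 1.33 CPM in the mutant against 0.294 and 0.0211 CPM in its control (2.71 on the log2 scale, SE 1.04, adjusted p = 0.125). Its control libraries held 11 and 1 counts, and the value was 5.48 without piwi control replicate 1 and 1.78 without replicate 2. In the knockdown 0 of the 5 passed in edgeR (2 at an unadjusted p under 0.05, 1 in DESeq2), and inv had the largest value (1.31, SE 0.931, adjusted p = 0.516).

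Of 9 tested genes of escort, follicle stem and early follicle cells, 0 passed in the mutant in edgeR (3 at an unadjusted p under 0.05, 3 in DESeq2), with a median log2 fold change of 0.03. The transcription factor gene cas, an early follicle marker, had 2.81 and 3.47 CPM in the mutant, against 1.10 and 0.507 CPM in its control (1.81 on the log2 scale, SE 0.581, adjusted p = 0.0832). In the knockdown 0 of the 9 passed in edgeR (2 at an unadjusted p under 0.05, 2 in DESeq2), with a median of 0.04. The adhesion gene Fas3, a follicle cell marker, had the largest value there, at 123 and 70.7 CPM in the knockdown against 38.4 and 37.0 CPM in its control (1.24 on the log2 scale, SE 0.301, adjusted p = 0.0988). The zinc finger gene zfh1 had the lowest value of p among these, at −0.92 (SE 0.196, adjusted p = 0.0745), and was named after its values were seen. In the mutant Fas3 had 107 and 105 CPM, against 57.1 and 34.0 CPM in its control (1.06, SE 0.301, adjusted p = 0.0645).

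Of 11 tested genes of the Hedgehog pathway other than hh and ptc, 0 rose in the mutant, with a median log2 fold change of −0.20. Those that fell were 3, beside 5.06% of all tested genes. They were ihog, a co-receptor gene (log2 fold change −0.66, SE 0.136, adjusted p = 0.0312), disp, which encodes the exporter of the lipid-bearing ligand (−0.55, SE 0.0986, adjusted p = 0.0222), and rasp, which encodes the acyltransferase of the ligand (−0.44, SE 0.106, adjusted p = 0.0428). With library totals alone none of the 3 passed (0.0578, 0.0583 and 0.145), and the median was −0.04. DESeq2 called 5 of the 11 lower and 0 higher, and in edgeR 5 had an unadjusted p under 0.05, all as lower. In the RnpS1 control against the piwi control the median of the 11 genes was −0.20 as well, and 0 passed in edgeR. There ihog had −0.08, disp −0.29 and rasp −0.35. The part of an elevated piwi control in the falls of these genes in the mutant was not tested. The transducer gene smo had 0.09 (SE 0.164, adjusted p = 0.736) and the effector gene ci −0.05 (SE 0.237, adjusted p = 0.908). The largest value that did not pass was that of shf, which encodes a secreted factor that binds the ligand (0.63, SE 0.535, adjusted p = 0.447). In the knockdown 0 of 11 passed in edgeR (2 at an unadjusted p under 0.05, 2 in DESeq2), and ihog had −0.58 (SE 0.135, adjusted p = 0.0896), with 27.3 and 33.5 CPM against 41.8 and 42.1 CPM in its control.

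Among 19 tested genes of the Wnt pathway the co-receptor gene arr fell in the mutant (log2 fold change −0.56, SE 0.105, adjusted p = 0.0245) and 0 rose, with a median of −0.20. Its adjusted p was 0.0528 with library totals alone, a scaling under which 2 genes of the list rose and 0 fell, and DESeq2 called 2 higher and 5 lower. Over all tested genes 6.37% rose and 5.06% fell in edgeR. In the RnpS1 control against the piwi control the median of the list was −0.17, and 0 of 19 passed. There arr had −0.25 (SE 0.105, adjusted p = 0.230, edgeR), and the part of an elevated piwi control in its fall was not tested. The ligand gene Wnt2 had 2.55 and 3.36 CPM in the mutant, against 1.26 and 0.592 CPM in its control (1.52, SE 0.669, adjusted p = 0.167). In the knockdown 0 of 19 passed in edgeR (1 at an unadjusted p under 0.05, 1 in DESeq2), and Notum, which encodes a secreted Wnt inhibitor, had 1.47 (SE 0.911, adjusted p = 0.451) from 22 counts against 5.

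Of 17 tested genes of the BMP pathway 1 rose and 1 fell in the mutant, close to the 6.37% and 5.06% of all tested genes. The median was −0.13, which turned to 0.03 with library totals alone. Under that scaling 2 rose and 0 fell, and DESeq2 called 3 higher and 1 lower. In the RnpS1 control against the piwi control the median was −0.20, and 1 of the 17 genes passed, as lower. The gene tok, which encodes a tolloid-like metalloprotease, had 20.5 and 23.8 CPM in the mutant, against 8.28 and 10.1 CPM in its control (1.12 on the log2 scale, SE 0.234, adjusted p = 0.0333). In the knockdown tok had 8.70 and 10.01 CPM, against 8.84 and 10.5 CPM in its control (−0.16, SE 0.231, adjusted p = 0.776), and the difference between these changes did not pass (−1.28, SE 0.328, adjusted p = 0.147). The receptor gene put fell in the mutant (−0.49, SE 0.116, adjusted p = 0.0416, and 0.117 with library totals alone). In the RnpS1 control against the piwi control put had 0.05. The largest value that did not pass was that of cv-2, which encodes a secreted BMP-binding protein (1.21, SE 0.412, adjusted p = 0.0960). In the knockdown 0 of 17 passed in edgeR (2 at an unadjusted p under 0.05, 0 in DESeq2), and tld, a metalloprotease gene related to tok, had 1.46 (SE 0.649, adjusted p = 0.294).

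Each of the 8 pathway genes that passed in the mutant lost its call without either mutant library or either piwi control library, and kept its sign. The adjusted p-values over the 8 fits that left out 1 library ranged from 0.0219 to 0.186 for LamC, 0.0182 to 0.140 for N, 0.0237 to 0.175 for ihog, 0.0256 to 0.153 for disp and 0.0431 to 0.212 for rasp. They ranged from 0.0212 to 0.148 for arr, 0.0353 to 0.189 for tok and 0.0512 to 0.211 for put. The call of ihog was also lost without RnpS1 control replicate 1, that of rasp without either RnpS1 control library, and that of put without any of the 8 libraries. With the replicate number as a block the adjusted p was 0.0504 for ihog, 0.0720 for rasp and 0.0703 for put, and without the filter on low counts it was 0.0553 for rasp.

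**Figure D4:**
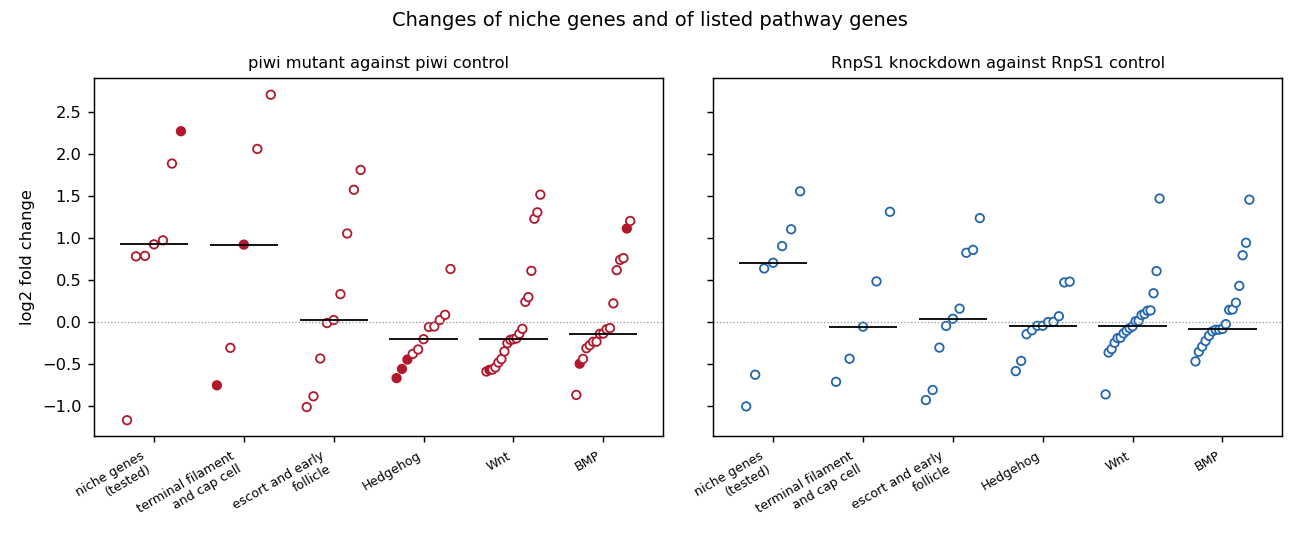
Log2 fold change (y axis) of each tested gene of the list (niche genes) and of the 5 pathway lists, in the piwi mutant (left) and the RnpS1 knockdown (right), each against its control; filled points passed and black bars are medians. In the left panel 1 niche gene and 8 pathway genes are filled, and in the right panel none is.

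Profiles over the 8 libraries were compared by the root mean square difference of log2 CPM, each profile centred on its own mean. The nearest profiles to bab2 were those of CG15431 (difference 0.179), alpha-Est2 (0.200) and NT5E-2 (0.229), and those to bab1 were CR12842 (0.147), cas (0.190) and CR18166 (0.241). Around their own means bab2 and bab1 varied by 0.886 and 0.856 on this scale. Next to tj were CG42747 (0.199), FBgn0000210 (0.213), an identifier with no symbol in the annotation, and the follicle cell patterning gene mirr (0.230). The nearest to Wnt4 were the neuronal genes elav (0.185) and robo2 (0.227) and CG10211 (0.243), and to ptc Or24a (0.254), form3 (0.274) and CG12105 (0.278). Next to hh were PIP82 (0.321), Lrp4 (0.329) and the GATA factor gene grn (0.333). Next to dpp were Cht6 (0.265), asRNA:CR43903 (0.293) and a further identifier with no symbol (0.312). Among 10433 genes ranked by nearness to each, Wnt4 came 26th to hh and 50th to ptc, and bab1 came 147th to bab2. Wnt4 also came 264th to bab1 and 414th to bab2, ptc 345th to bab1 and 325th to bab2, and dpp 250th to ptc. Some other pairs lay far apart, with hh 2171st to bab1 and 1862nd to bab2, and dpp 3033rd to bab1 and 7762nd to hh. The gene tj came 9217th to bab1, 9248th to bab2, 9050th to hh, 8879th to Wnt4, 8222nd to ptc and 3409th to dpp. The rankings are a description over 8 libraries that share group, depth and tissue composition.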

How the data were processed

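The deposited values are read counts per gene, raw and not normalized, in 1 table a library. HTSeq 0.5.3p9, TopHat2 2.0.9, DESeq and CASAVA (1.8 and 1.8.2) are the tools, and BDGP5 and dm3 the builds, named, per the submitters' processing notes. Per the labels' protocols, ribosomal RNA was depleted and libraries were strand-specific. Rows that name no gene stayed out: reads outside genes were 1.91% to 10.7% and ambiguous reads 1.19% to 1.63% of gene counts plus both, and alignments to several places 43.2% to 66.0% when added to these. The share of alignments to several places was 66.0% and 64.6% in the piwi mutant, against 51.4% and 43.2% in its control. It was 65.6% and 50.3% in the knockdown, against 44.9% and 65.3% in the RnpS1 control. Symbols, exon lengths and introns came from BDGP6, a later release, so no coordinates are given (15002 of 15682 identifiers matched). The tables of transposon families were not used here.

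The quasi-likelihood test of edgeR 4.0.16, run in R 4.3.3, took the counts in 1 fit over 8 libraries with a term per group, filterByExpr (10434 genes), TMM factors and Benjamini-Hochberg adjustment at 0.05; it had 4 residual and 3.03 prior degrees of freedom and was tested on simulated data. SEs were derived from the F statistic. An exact permutation test of 2 against 2 libraries cannot go below 0.333 (two-sided), so none was used. CPM are counts over library totals. Depth limits precision: intervals and the floor of 3 counts cover counting error only. Replicates of each group differed beyond sampling noise (chi-square per degree of freedom 57.9 to 328).

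The genes, lists and tests were chosen with earlier results of these data known. The text names all members, every listed pathway gene that passed in the mutant or knockdown (at most 5 a list), the largest that did not, and the 3 nearest profiles of each member. The genes smo, ci, zfh1, Fas3 in the mutant, inv in the mutant, Wnt6, Wnt10, Lmx1a and single marker genes of other cells were named outside that rule, after their values were seen. Listed genes whose identifier in the later annotation had no row were wg, Dl, br, ttv, slmb, WntD, Med, wupA, dec-1, vas and nos. Whether the counts hold them under another identifier was not tested. Alternatives were DESeq2 1.42.0, library totals, other filters, fits of 2 groups, a replicate block and leaving out each library.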

Additional observations from a re-analysis of the deposited data

How the results depend on the processing

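In the mutant comparison 1 of the 7 genes passed, and 0 passed with the replicate block, in which the numbers share no stated origin (correlation of same-numbered deviations −0.18 in the piwi groups, 0.21 in the RnpS1 groups). The crossed pairing of the piwi groups, added after seeing the data, gave 2 of 7 (bab2 higher, tj lower) and 2698 of all genes. A fit of the 2 piwi groups alone without pairing gave 1 of 7 and 1555 of all genes. Leaving out 1 library gave 0 to 1 of 7 in the mutant and 0 in each other comparison. Genes passing over the whole table were 1193 in the mutant comparison (2465 in DESeq2, 659 with the block, 27 to 1138 leaving out 1 library). They were 169 in the knockdown (1001 in DESeq2, 254 without a filter, 5 in a fit of 2 groups, 64 with the block, 0 to 139 leaving out 1). For the difference of changes they were 68 (789 in DESeq2, 120 without a filter, 12 to 41 leaving out 1). Between the controls they were 402 (1431 in DESeq2, 135 in a fit of 2 groups, 211 with the block, 44 to 355 leaving out 1). With library totals the median of all genes moved to 0.17 in the mutant and 0.12 in the knockdown, and the calls split into 814 higher and 200 lower (665 and 528 with TMM) and into 124 and 46 (92 and 77 with TMM).

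Signs turned without 1 library only for values that did not pass. Ranges over the 8 fits were, for the RnpS1 control against the piwi control, −0.95 to 0.23 (bab1), −1.52 to 0.10 (Wnt4), −0.50 to 0.50 (tj) and −0.13 to 0.86 (dpp). For the difference of changes they were −0.88 to 0.79 (Wnt4), −0.91 to 0.77 (tj) and −1.13 to 0.26 (ptc). The range of hh in the mutant was −0.36 to 1.47, and that of ptc in the knockdown −0.14 to 1.23. With library totals tj turned to 0.00036 between the controls. The causes were not tested. A fit that leaves a group with 1 library assumes that it varies like the others. The fit of 2 groups was not run for the difference of changes. Depth limits en most, with at most 8 counts in a library.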

Other observations

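Some related genes were counted rarely as well. The homeodomain gene inv, the neighbour and paralogue of en, had 8 and 25 counts in the piwi mutant, against 2 and 4 in its control, and 24 and 33 in the RnpS1 knockdown, against 3 and 11 in its control. The mutant and knockdown libraries each lay above both of their own controls (log2 fold change 2.06 in the mutant, SE 1.02, adjusted p = 0.209, edgeR). Wnt6, which lies next to wg in the annotation, had 3 and 8 counts in the mutant, against 3 and 2 in its control, and 7 and 9 in the knockdown, against 3 and 0 in its control. Wnt10 had 0 and 4 counts in the mutant, against 0 and 0 in its control, and 0 and 1 in the knockdown, against 1 and 0 in its control. The terminal filament gene Lmx1a had 4 and 18 counts in the mutant, against 4 and 1 in its control, and 1 and 4 in the knockdown, against 2 and 7 in its control. Mutant replicate 2 held most of the mutant's counts for en, inv, Lmx1a and Wnt10, and that library also had the highest summed level of the muscle and fat body genes, at 2301 and 1003 CPM. The part of those tissues in these counts was not tested.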
